A study of Homo sapiens with 288 samples.

Results

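The genes of endothelial hemostasis and vascular tone VWF, THBD, PROCR, TFPI, TFPI2, F2R, PLAT, NOS3, EDN1 and KLF2 were followed in single cells. They are 10 of the 17492 protein-coding genes in the tables and were taken by gene symbol from a named list, not by their values, and all 10 symbols had exactly 1 row. For each gene the level, the share of cells in which it was detected and the spread from cell to cell were measured in 2 cell types and in 3 experiments on the same cells.

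A resting endothelium keeps blood fluid. TFPI and its relative TFPI2 are Kunitz-type inhibitors, the first of which blocks the tissue factor complex that starts coagulation. Thrombomodulin, encoded by THBD, binds thrombin, and the endothelial protein C receptor, encoded by PROCR, presents protein C to that complex, so that the anticoagulant activated protein C is formed. VWF tethers platelets, F2R is the thrombin receptor PAR1, and PLAT is the tissue-type plasminogen activator that starts the breakdown of fibrin. NOS3 makes the vasodilator nitric oxide, EDN1 is the precursor of the vasoconstrictor endothelin-1, and KLF2 is a transcription factor induced by laminar flow that is known to raise NOS3 and THBD in endothelium.

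Both cell types came from the H1 line of human embryonic stem cells. The endothelial cells (EC) were grown in E8 medium with 5 ng/ml BMP4 and 25 ng/ml Activin A for 2 days and then with VEGF and WNT for 3 days. The trophoblast-like cells (TB) were grown in E7, which is E8 without FGF2, with 50 ng/ml BMP4 and the inhibitor SB431542. Single cells were captured on the Fluidigm C1, which lyses each cell in its own chamber and makes amplified full-length cDNA, and the amplified cDNA kept from 45 EC and 51 TB cells was used in 3 experiments. The cDNA input was made equal across cells, and the tagmented cDNA was pooled at equal volumes in EQ and at unequal volumes in EQ-Vary. EQ-75% was a full repeat of EQ, from equalized input on, at about 75% of the depth. EC 1, EC 14, TB 4, TB 28 and TB 48 had between 5634 and 45803 counts in both EQ and EQ-Vary and passed in EQ-75%, so EQ and EQ-Vary are not read here as separate library repeats. The labels name no separate cultures, so each cell type in each experiment was 1 sample. Levels are therefore described without p-values, and SDs are over cells.

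Cells with a log10 total count below 5.4 or more than 31% of their counts in the 50 most abundant genes were left out, which kept 38 EC and 48 TB cells in EQ, 38 and 46 in EQ-Vary and 39 and 50 in EQ-75%. The median total of the kept cells lay between 1499284 and 2025145 counts, so that 1 count was worth a median of 0.494 CPM (counts per 1000000 counts) in EC in EQ. All 12 endothelial markers examined, among them PECAM1, CDH5 and KDR, were at least 2-fold higher in EC. Of 12 trophoblast-like markers, 11 were at least 2-fold higher in TB in EQ and EQ-Vary and 10 in EQ-75%. The platelet gene GP9 and the blood gene SPI1 were at 0 counts in both types in EQ. EC 15 stood apart from the other EC cells in all 3 experiments. It had the lowest endothelial marker sum of the 38 EC cells in EQ, 371 CPM against a median of 5095 CPM, and the highest trophoblast-like and pluripotent marker sums, 3990 and 2755 CPM. Results that rest on EC 15 are given with and without it where both were computed.

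Of the 10 genes, 8 had a mean level at least 2-fold higher in EC than in TB in EQ, and the same number did in EQ-Vary and in EQ-75%. Of all genes with a mean of at least 1 CPM in a cell type, 19.7% did so in EQ, against 20.1% for EQ-Vary and 18.9% for EQ-75%. The 8 genes were the same in the 3 experiments (VWF, THBD, PROCR, TFPI, F2R, PLAT, NOS3 and KLF2), and 17.4% of all genes were past 2-fold in this direction in all 3. EDN1 and TFPI2 were at least 2-fold lower in EC in EQ and EQ-Vary, and in EQ-75% only EDN1 was. In this direction 27.2%, 27.3% and 28.1% of all genes were past 2-fold in the respective experiments, and 24.9% in all 3. The median log2 ratio of EC over TB was 4.08 over the 10 genes in EQ and -0.08 over all genes with a mean of at least 1 CPM. Each ratio compares 1 EC sample with 1 TB sample and has no replicate check beyond the reuse of the same cDNA.

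**Figure D1:**
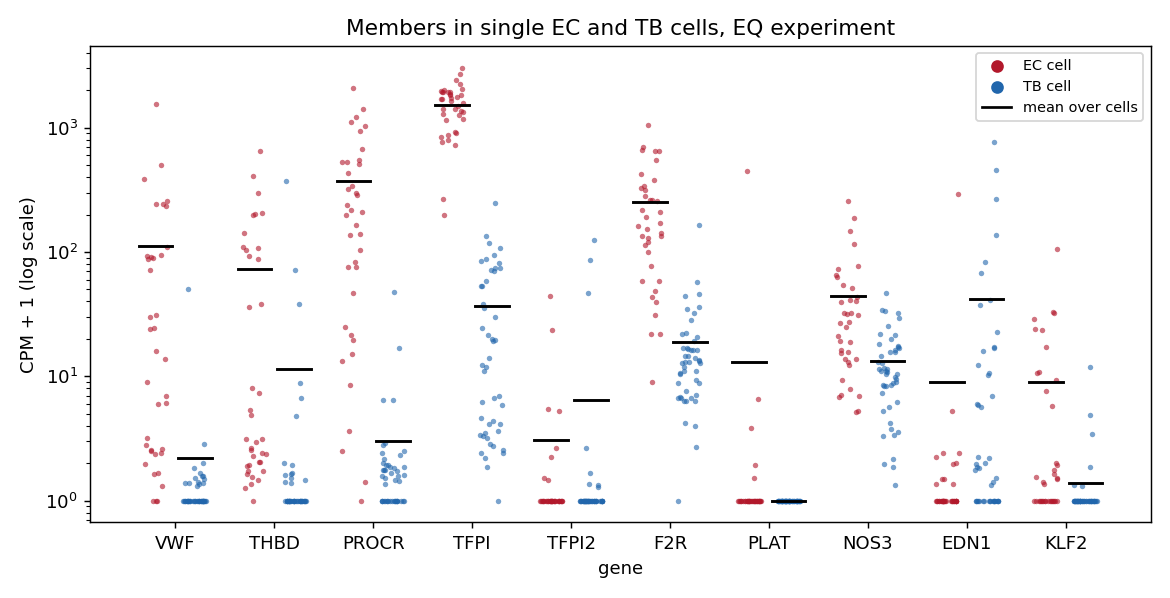
CPM + 1 on a log scale for each of the 10 genes in the kept cells of EQ, with 1 point per cell (38 EC in red, 48 TB in blue) and a black bar at the mean. TFPI filled a narrow high band in EC, VWF, THBD and PROCR were spread over the whole range, and single high cells carried the EC means of PLAT and EDN1.

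RefSeq (GRCh38.p14) gave promoter windows for 6 of the 10 genes, and 4 of them are printed as the 250 bases before the start. TFPI and PROCR are shown because they had the highest levels per kilobase of transcript in EC, and EDN1 and TFPI2 because they were the genes with the higher mean in TB. Capitals mark matches, on either strand, to 4 short motifs of factor families known in endothelial or trophoblast cells: GATAA (GATA factors), AGGAAG (ETS factors), CCACCC (KLF factors) and TGANTCA (AP-1).
TFPI, chr2:187554436-187554685, minus strand: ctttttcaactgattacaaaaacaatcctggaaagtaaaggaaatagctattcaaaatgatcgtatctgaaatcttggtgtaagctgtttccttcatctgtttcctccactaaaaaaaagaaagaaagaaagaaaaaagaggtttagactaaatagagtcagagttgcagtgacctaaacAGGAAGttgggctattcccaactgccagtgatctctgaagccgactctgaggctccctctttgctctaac
PROCR, chr20:35171822-35172071, plus strand: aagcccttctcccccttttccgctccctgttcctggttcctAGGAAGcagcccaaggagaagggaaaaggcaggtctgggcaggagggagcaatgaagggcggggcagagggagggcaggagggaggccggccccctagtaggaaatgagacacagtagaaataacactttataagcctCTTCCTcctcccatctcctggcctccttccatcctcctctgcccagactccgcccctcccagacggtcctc
EDN1, the RefSeq start at the gene's annotated start, chr6:12290111-12290360, plus strand: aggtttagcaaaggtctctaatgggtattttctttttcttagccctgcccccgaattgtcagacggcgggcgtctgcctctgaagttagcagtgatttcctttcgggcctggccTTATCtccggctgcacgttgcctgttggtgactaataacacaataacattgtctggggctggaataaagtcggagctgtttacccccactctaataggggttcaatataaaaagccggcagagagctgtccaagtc
TFPI2, chr7:93890754-93891003, minus strand: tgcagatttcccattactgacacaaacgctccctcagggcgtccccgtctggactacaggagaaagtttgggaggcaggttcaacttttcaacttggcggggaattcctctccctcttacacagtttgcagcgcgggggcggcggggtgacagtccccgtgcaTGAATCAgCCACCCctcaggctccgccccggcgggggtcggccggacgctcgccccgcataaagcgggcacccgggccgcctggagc

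The TFPI window held 1 AGGAAG, which starts 70 bases before the start site, and the PROCR window held 2, at 209 and, on the other strand, at 71 bases. AGGAAG was in 28.7% of 35116 promoter windows of the same length. The printed EDN1 window held GATAA on the other strand at 136 bases, a motif in 20.4% of windows. RefSeq has 2 other EDN1 starts, whose windows held no GATAA and 1 AGGAAG each, at 153 bases on the other strand and at 209 bases. In the TFPI2 window TGANTCA at 87 bases was followed after 1 base by CCACCC at 79 bases, motifs found in 6.57% and 31.3% of windows. TFPI2 had 20 CG dinucleotides in its 250 bases, EDN1 9, PROCR 5 and TFPI 2. These are matches of letters, and no binding was measured.

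TFPI was the most abundant of the anticoagulant genes in EC and the most even. The gene lies on chromosome 2 (187464230 to 187565760, minus strand, GRCh38), where the RefSeq start used for the window lies inside the gene. In EQ its level in EC ran from 196 to 3040 CPM with a median of 1606 CPM, and in TB from 0 to 247 CPM with a median of 12.2 CPM. It was detected in all 38 EC cells and in 47 of 48 TB cells. Of the 38 EC cells, 37 were above every TB cell, and the 1 below was EC 15. The means were 1528 ± 618 CPM (SD, 38 cells) in EC and 35.4 ± 48.1 CPM (SD, 48 cells) in TB, a ratio of 43.1. The ratio was 42.4 in EQ-Vary and 43.6 in EQ-75%, and with all 45 EC and 51 TB cells it was 23.3 in EQ. EC 32, the highest EC cell in EQ, had the highest summed level of 4 hepatocyte markers among EC cells, 153 CPM. TB 49, the highest TB cell for TFPI and among the 3 highest for TFPI2 and EDN1 in EQ, had the highest such sum among TB cells, 83.9986 CPM. The median of this sum was 0 in both types. In EC its mean in EQ came almost wholly from FGB (4.03 CPM), with ALB and TTR at 0. In TB it came almost wholly from ALB (1.87 CPM), with APOA2 and TTR at 0. The part of these sums in the results was not tested. Without EC 15 the lowest EC cell in EQ was EC 23 at 265 CPM, and all 37 EC cells were above every TB cell.

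TFPI2 (chromosome 7, 93885396 to 93890753) was found in few cells of either type. In EQ it had counts in 8 of 38 EC cells (21.1%, exact 95% interval 9.55 to 37.3%) and in 8 of 48 TB cells (16.7%, 7.48 to 30.2%). The highest EC cells were EC 26 at 43.4 CPM and EC 3 at 22.5 CPM, and the highest TB cells were TB 11 at 124.7 CPM, TB 17 at 84.5 CPM and TB 49 at 45.999 CPM. No other cell of either type reached 10 CPM. The means were 2.07 ± 7.83 CPM in EC and 5.39 ± 22.3 CPM in TB, so the mean was 2.61-fold higher in TB in EQ, 2.25-fold in EQ-Vary and 1.66-fold in EQ-75%. On the mean of log2(CPM + 1) the direction turned, to 0.025, 0.074 and 0.069 higher in EC. The shares of cells with TFPI2 overlapped within their intervals, and the higher TB mean rested on 3 cells.

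The receptors of the protein C pathway differed between EC cells far more than TFPI did. PROCR, on chromosome 20 (35172072 to 35216240), ran from 0 to 2093 CPM in the 38 EC cells of EQ with a median of 203 CPM, and from 0 to 47.1 CPM in the 48 TB cells with a median of 0.537 CPM. The highest EC cells were EC 5 at 2093 CPM, EC 13 at 1422 CPM and EC 37 at 1211 CPM, and 27 of the 38 EC cells were above every TB cell. EC 5 also had the highest summed level of 7 platelet and blood markers of the EC cells, 200.5 CPM against a median of 14.8 CPM, and EC 37 had the highest sum of 5 smooth muscle and mesenchyme markers, 488.5 CPM. The part of these in the result was not tested. The means were 370 ± 473 CPM in EC and 1.99 ± 7.09 CPM in TB, a ratio of 185, and the ratios in EQ-Vary and EQ-75% were 156 and 218. With all 45 EC and 51 TB cells they were 33.8 for EQ, 36.7 for EQ-Vary and 40.3 for EQ-75%, and with the highest cell of each type left out the ratio in EQ was 312. PROCR was detected in 37 of 38 EC cells and in 28 of 48 TB cells, and its mean in TB was 0.540% of that in EC. The 10 endothelial markers with at least 50 CPM in EC had TB levels between 0.142% and 2.94% of their EC levels, with a median of 0.274%.

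THBD, a gene of 1 exon on chromosome 20 (23045633 to 23049672), split the EC cells into a low and a high part. Its median in EC was 2.13 CPM, while 14 of 38 cells had at least 10 CPM and 10 had at least 100 CPM, up to 653 CPM in EC 39, 406 CPM in EC 18 and 296 CPM in EC 20. In TB the median was 0 CPM and 3 of 48 cells reached 10 CPM, TB 27 at 369 CPM, TB 26 at 70.7 CPM and TB 42 at 36.9 CPM. The groups overlapped, and only 2 EC cells were above the highest TB cell. TB 27 alone held 73.9% of the THBD signal of TB. The means were 71.3 ± 135 CPM in EC and 10.4 ± 54.1 CPM in TB, a ratio of 6.85, and with the highest cell of each type left out the ratio was 20.0003. In EQ-Vary and EQ-75% the ratios were 5.99 and 8.02. With all cells the ratio in EQ was 11.4, and from summed counts that in EQ-Vary was 2.38. EC 39, the highest EC cell for THBD in EQ, also had the highest endothelial marker sum in EQ, 8721 CPM. In EQ-75% the highest THBD cell was EC 1 at 621 CPM, which ranked 13 for the endothelial marker sum. Over 37 EC cells, Spearman's rho of THBD with the mean log2 level of these markers was 0.106 (EQ), 0.111 (EQ-Vary) and 0.221 (EQ-75%).

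Of the 14 EC cells with at least 10 CPM of THBD in EQ, 13 also had at least 10 CPM of PROCR. Another 20 cells had PROCR without THBD at this level, and 4 had neither. The counts were the same in EQ-Vary, and in EQ-75% they were 12 with both, 3 with THBD alone, 20 with PROCR alone and 4 with neither.

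VWF, on chromosome 12 (5948877 to 6124770), was spread from no counts to very high levels among EC cells. In the 38 EC cells of EQ it ran from 0 to 1554 CPM with a median of 13.9 CPM. EC 13 had 1554 CPM, followed by EC 12 at 500 CPM and EC 11 at 387 CPM, and EC 13 held 36.9% of the summed signal. In EQ-75% EC 13 was again the highest, at 709 CPM. It was detected in 35 EC cells (92.1%, exact 95% interval 78.6 to 98.3%), of which 26 had at least 5 counts, and in 15 of 48 TB cells, of which 1 had at least 5 counts. That cell, TB 16, had 49.7 CPM in EQ, 51.3 CPM in EQ-Vary and 30.2 CPM in EQ-75%, and it held 85.04% of the TB signal in EQ. TB 16 had the highest trophoblast-like marker sum of the TB cells in EQ, 18832 CPM, and an endothelial marker sum of 29.9 CPM, near the TB median of 28.3 CPM. The means were 111 ± 267 CPM in EC and 1.22 ± 7.16 CPM in TB, a ratio of 91.0, which was 386 with the highest cell of each type left out, 60.2 from summed counts and 30.2 with all 45 EC and 51 TB cells. Reads of VWF could be shared with a partial pseudogene copy, which is not among the genes of the tables.

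F2R, on chromosome 5 (76716126 to 76735770), was present in nearly every cell of both types at different levels. In EQ it ran from 7.97 to 1051 CPM in EC with a median of 165 CPM, and from 0 to 163 CPM in TB with a median of 12.1 CPM. F2R counts were found in all 38 EC cells and in all but 1 of the 48 TB cells, and 19 EC cells were above every TB cell. EC 15 was the lowest EC cell in each experiment. The means were 249.003 ± 237 CPM in EC and 17.8 ± 24.4 CPM in TB, a ratio of 13.98, and the ratio was 14.96 for EQ-Vary and 18.03 for EQ-75%. The mean in TB was 7.15% of that in EC in EQ, above the range of the 10 endothelial markers with at least 50 CPM in EC. The markers outside that set were ENG (13.5 CPM in EC, 1.41 CPM in TB) and CLDN5 (4.84 and 0 CPM).

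PLAT, on chromosome 8 (42174718 to 42207709), came from essentially 1 EC cell. EC 4 had 449.6 CPM in EQ, 405 CPM in EQ-Vary and 339 CPM in EQ-75%, while the next cell, EC 2, had 5.6003, 5.6052 and 8.91 CPM. In EQ the gene was detected in 5 of 38 EC cells, and EC 4 held 97.8% of the signal. In TB it had 0 of 96607884 counts in EQ and 1 count each in EQ-Vary and EQ-75%. The floor of 3 counts in TB in EQ was 0.0311 CPM. The EC mean was 12.1 ± 72.9 CPM in EQ. From 288 summed counts in EC and 0 in TB, EC was 118-fold higher with TB set to the floor of 3 counts. The lower 95% counting limit of the ratio was 95.6. With the mean CPM in place of the summed counts, in which the shallow cell EC 4 weighs more, the value against the floor was 389. From the summed counts with TB set to the same floor, the ratio was 66.3 in EQ-Vary and 87.0 in EQ-75%. Without the floor, on 1 TB count each, the ratio was 199 in EQ-Vary (95% counting interval 35.1 to 7905). It was 261 in EQ-75% (46.2 to 10372). Without EC 4 the EC mean in EQ was 0.267 CPM, below the 1 CPM needed for a call. EC 4 had 600574 counts in EQ and the third lowest endothelial marker sum of the EC cells, 2150 CPM.

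Among the genes of vascular tone, NOS3 was the most evenly detected. The gene lies on chromosome 7 (150991017 to 151014588). In EQ it was detected in all 38 EC and all 48 TB cells, from 4.12 to 258 CPM with a median of 26.1 CPM in EC and from 0.335 to 45.4 CPM with a median of 9.95 CPM in TB. The highest EC cells were EC 38 at 258 CPM, EC 25 at 187 CPM and EC 35 at 147 CPM. Most cells of the types overlapped, with 10 EC cells above every TB cell. The means were 43.04 ± 53.3 CPM in EC and 12.2 ± 9.67 CPM in TB, a ratio of 3.54, and 3.09 and 3.51 in EQ-Vary and EQ-75%. Whether the counting used strand is not given in the sources used here. NOS3 overlaps ATG9B on the opposite strand with 0 bases shared between their canonical exons, and ATG9B had 3.999 ± 7.34 CPM in EC and counts in 1 of 48 TB cells. PROCR, TFPI and F2R share 218, 118 and 39 exonic bases with RNA genes of the opposite strand that are not among the genes of the tables, and reads there could not be told apart without strand.

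EDN1, on chromosome 6 (12290361 to 12297194), was the gene with the clearest higher level in TB. In EQ the TB cells ran from 0 to 765 CPM with a median of 0.841 CPM, and 13 of 48 had at least 10 CPM. The highest were TB 8 at 765 CPM, TB 44 at 452 CPM and TB 49 at 268 CPM. In EC 1 of 38 cells had at least 10 CPM, and that cell was EC 15 with 294 CPM in EQ, 263 CPM in EQ-Vary and 281 CPM in EQ-75%. The next EC cell, EC 18, had 4.30 CPM in EQ. The means were 8.05 ± 47.6 CPM in EC and 41.1 ± 131.6 CPM in TB, so EDN1 was 5.10-fold higher in TB. Without EC 15 the EC mean was 0.328 ± 0.799 CPM, and the mean in TB was 125-fold higher in EQ, 147-fold in EQ-Vary and 181-fold in EQ-75%. The TB mean depended on which cells were kept. TB 8 was left out in EQ-75% with 6310 counts, and TB 28, at 388 CPM in EQ-75%, was left out in EQ. Over the 45 TB cells kept in all 3 experiments the means were 26.03, 25.3 and 24.3 CPM.

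KLF2, on chromosome 19 (16324826 to 16328685), was low and mostly found in EC. In EQ it ran from 0 to 106 CPM in EC with a median of 0.453 CPM and was detected in 21 of 38 cells (55.3%, exact 95% interval 38.3 to 71.4%). At least 10 CPM were found in 7 EC cells, led by EC 23 at 106 CPM, EC 12 at 31.8 CPM and EC 26 at 31.1 CPM. In TB it was detected in 6 of 48 cells (12.5%, 4.73 to 25.2%), and 1 cell reached 10 CPM, TB 40 at 10.9 CPM from 4 counts. The means were 7.97 ± 18.8 CPM in EC and 0.391 ± 1.69 CPM in TB, a ratio of 20.4, and 35.5 and 20.4 in EQ-Vary and EQ-75%. Without the highest cell of each type, TB 40 in TB, the ratio in EQ was 31.955, and over the cells kept in all 3 experiments it was 46.96 in EQ and 33.3 in EQ-75%. The 7 EC cells with at least 10 CPM of KLF2 all had at least 10 CPM of NOS3 in EQ, as did 24 of the 31 other cells, and 6 of 7 did in EQ-Vary and 5 of 7 in EQ-75%. Of the same 7 cells, 3 had at least 10 CPM of THBD, as did 11 of the 31 other cells.

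**Figure D2:**
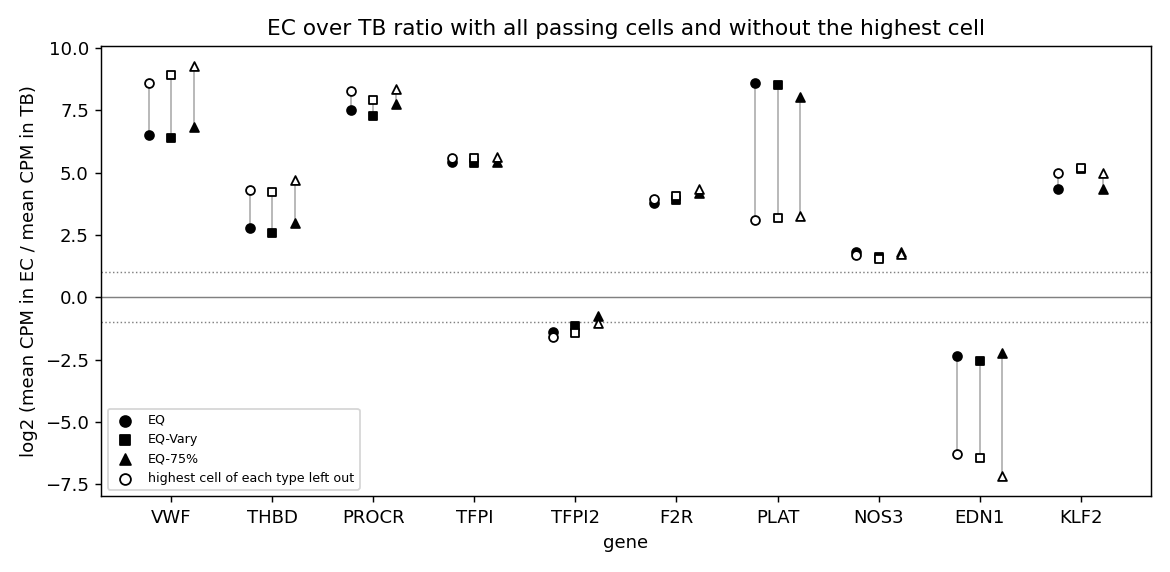
Log2 of the mean CPM in EC over the mean CPM in TB for each gene in EQ (circles), EQ-Vary (squares) and EQ-75% (triangles), with all kept cells (filled) and with the highest cell of each type left out (open); dotted lines mark 2-fold. TFPI, F2R and NOS3 barely moved when 1 cell was left out, VWF, THBD and EDN1 moved away from 0, and PLAT dropped from 8.60 to 3.11 in EQ, both against the floor of 3 counts in TB.

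Levels of different genes were compared per kilobase of the canonical transcript. In EC in EQ the order was TFPI (396 ± 160 CPM per kb), PROCR (274 ± 351), F2R (66.8 ± 63.5), THBD (17.7 ± 33.5), VWF (12.6 ± 30.3), NOS3 (9.86 ± 12.2), EDN1 (3.96 ± 23.4), PLAT (3.95 ± 23.8), KLF2 (2.83 ± 6.68) and TFPI2 (0.936 ± 3.55). In TB the order began with EDN1 (20.2 ± 64.7 CPM per kb), TFPI (9.18 ± 12.5), F2R (4.78 ± 6.55) and NOS3 (2.78 ± 2.21). Among these genes, no neighbours in either order differed by more than the larger of their SDs over cells. These SDs describe the spread of single cells and not the error of a mean, so this comparison cannot tell which places are resolved. The places of EDN1 and PLAT in EC rested on EC 15 and EC 4.

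The spread between cells was read against genes of like level, as the variance of log2(CPM + 1) divided by a trend fitted over all genes. In EC 5 of the 10 genes were above 1.5 times the trend in EQ, where 26.9% of all genes were, and 5 were in EQ-Vary (26.1%) and in EQ-75% (26.8%). They were PROCR at 3.16 times the trend in EQ, PLAT at 2.31, VWF at 2.02, THBD at 1.90 and EDN1 at 1.55. The ratio of PROCR was above that of 99.8% of all genes in EQ and of 99.4% in EQ-75%. Without EC 15 the ratio of EDN1 fell to 0.431 in EQ, and 4 genes remained above 1.5 in each experiment. PLAT is among these 4, and EC 4 held 97.8% of its signal in EQ. Its ratio without EC 4 was not computed. NOS3 at 0.475 and TFPI at 0.840 were below the trend in EQ, and without EC 15 TFPI was at 0.605.

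In TB, 3 of the 9 genes with enough signal were above 1.5 times the trend in EQ, where 19.8% of all genes were. They were TFPI2 at 2.15, THBD at 1.61 and EDN1 at 1.605. The count was 3 in EQ-Vary (19.9%) and 2 in EQ-75% (19.2%), where THBD was at 1.35. F2R at 0.2995 and NOS3 at 0.279 were far below the trend, where 7.87% and 6.65% of genes had a lower ratio. NOS3 was below the trend in both cell types, and EDN1 was above it in TB with no single cell holding more than 38.8% of its signal in EQ.

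**Figure D3:**
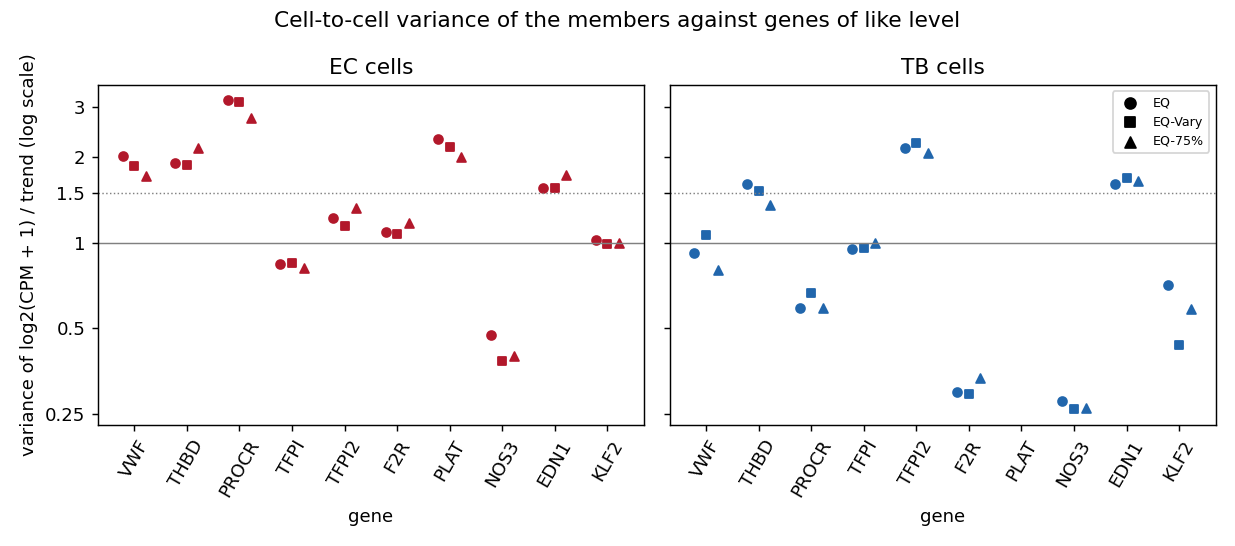
Variance of log2(CPM + 1) over cells divided by the trend over all genes, on a log scale, for EC (left) and TB (right) in the 3 experiments; the solid line marks the trend and the dotted line 1.5 times the trend. PROCR was highest in EC, between 2.74 and 3.16, NOS3 was below 0.5 in both cell types, and PLAT had too little signal in TB to be placed.

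The same cells were sequenced again from the same cDNA, which gave the part of this spread that arose after the cDNA was made. Over the 37 EC cells kept in EQ and EQ-75%, the share of the variance that lay between the libraries of a cell was 1.28% for PROCR, 1.83% for F2R, 1.97% for THBD, 2.24% for PLAT and 2.73% for VWF, against a median of 4.56% over all genes. It was 5.01% for TFPI2, 5.96% for NOS3, 6.96% for EDN1, 8.73% for TFPI and 9.43% for KLF2. EC 4 held 97.8% of the PLAT signal in EQ, so the share of PLAT rests largely on 1 cell. In the same way EC 15 held 96.0% of the EDN1 signal of EC in EQ, and the share of EDN1 without EC 15 was not computed. High cells were high again. EC 5 led PROCR, EC 4 PLAT, EC 15 EDN1, EC 13 VWF, EC 23 KLF2, EC 26 TFPI2 and EC 11 F2R in all 3 experiments. In TB, over 47 cells, the share was 21.7% for PROCR, 19.4% for NOS3 and 17.4% for F2R against a median of 3.81%.

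Some genes were shifted as a whole between the repeats. KLF2 was higher in EQ than in EQ-75% in 20 EC cells and lower in 1, with the other 16 at 0 in both, and its mean over the 37 cells was 8.19 CPM in EQ and 4.51 CPM in EQ-75%. TFPI was higher in EQ-75% in 30 of 37 cells, with means of 1516 and 1703 CPM. PROCR and NOS3 were each higher in EQ in 28 of 37 cells. VWF was higher in EQ in 24 cells and lower in 11. Between EQ and EQ-Vary the mean of TFPI was 1528 and 1541 CPM over 38 cells, and the SD of its log2 difference was 0.06. The cause of the shifts was not tested.

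**Figure D4:**
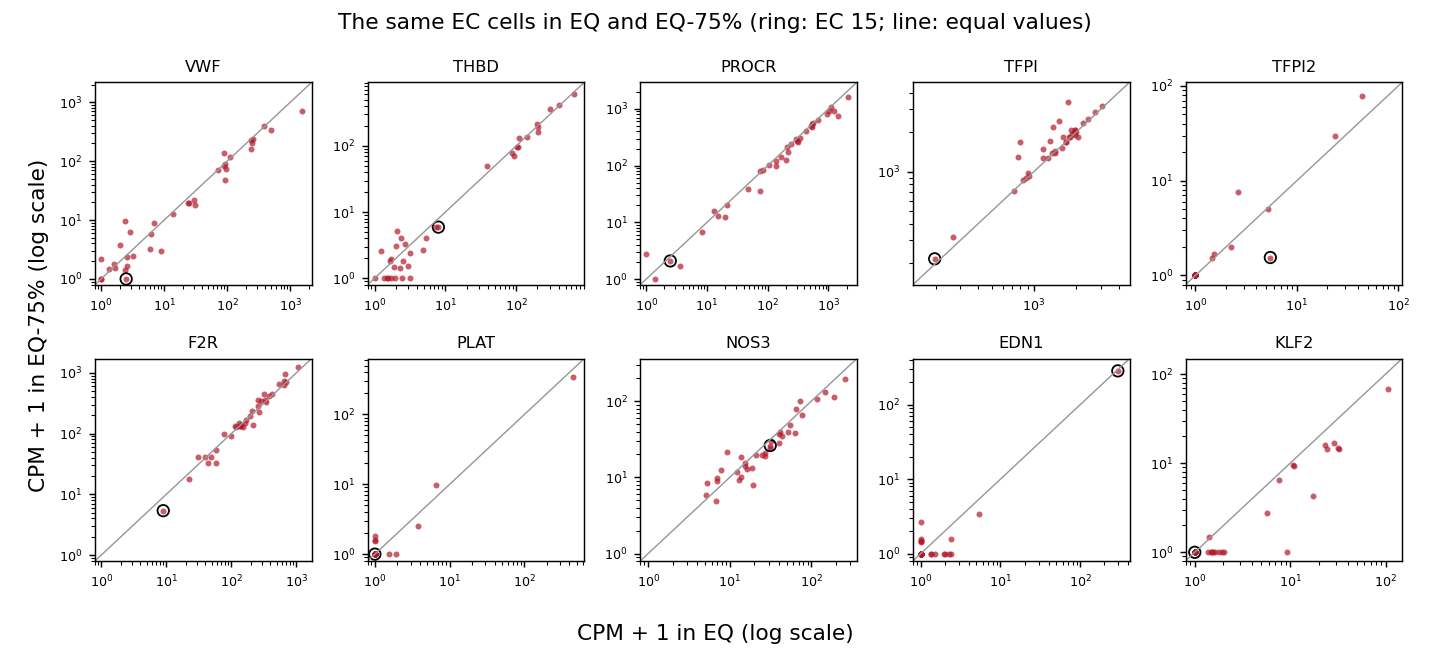
CPM + 1 in EQ-75% against EQ, both on log scales, for the 37 EC cells kept in both, with 1 panel per gene, a line at equal values and a ring around EC 15. Points lie along the line for PROCR, F2R, VWF and THBD above about 10 CPM, KLF2 lies below it, and EC 15 is the highest cell for EDN1 and the lowest for TFPI and F2R.

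The low genes were not found in every experiment on a cell. Of the 37 EC cells kept in all 3 experiments, TFPI, F2R and NOS3 were detected in each experiment in every cell, and PROCR in each experiment in 35 cells. VWF was detected in all 3 experiments in 31 cells, THBD in 29 and KLF2 in 12. THBD and VWF were missed in an experiment only in cells where they reached no more than 2.12 and 3.37 CPM, and KLF2 in cells of up to 8.33 CPM. EDN1 had counts in at least 1 experiment in 19 of the 37 cells but in all 3 in only 2. KLF2 was detected in 55.3% of EC cells in EQ, against 47.4% for EQ-Vary and 35.9% for EQ-75%, and in 44.3%, 40.6% and 29.2% after thinning to 1000000 counts, so the order was the same at equal depth.

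An EC cell had counts for 7.05 ± 0.985 of the 10 genes in EQ (SD, 38 cells) and a TB cell for 5.06 ± 1.45 (48 cells). At a level of at least 10 CPM the numbers were 4.84 ± 1.22 and 2.12 ± 1.06. Within the same EC cell, EQ had 0.459 ± 0.803 more genes than EQ-75% (SD, 37 cells), with 16 cells having more, 3 fewer and 18 the same number. With the libraries of each pair thinned to the shallower, the difference was 0.247. Against EQ-Vary the difference was 0.132 ± 0.935 (38 cells). In that comparison 11 cells had more genes in EQ, 6 fewer and 21 the same number. Both differences were smaller than their SDs over cells, which describe the spread of single cells and not the error of the mean.

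Levels of the 10 genes were only weakly related across EC cells. Among the 7 genes detected in at least 50% of EC cells in EQ there were 21 pairs, and over 37 cells Spearman's rho ran from -0.253 to 0.416 in the 3 experiments. No pair had a rho of at least 0.3 in size in all 3. The highest were THBD with NOS3 (0.293, 0.249 and 0.416) and PROCR with TFPI (0.230, 0.238 and 0.399), and KLF2 with THBD was near 0 (0.045, -0.020 and 0.046). KLF2 had counts in 21 of 38 EC cells in EQ and at least 5 counts in 12, so its rho values rest on few ranked cells. VWF, TFPI and NOS3 had a rho with the total count of no more than 0.161 in size. THBD had -0.321 with the total count in EQ and -0.013 in EQ-75%. The cells share a capture and library preparation, and these values are descriptions.

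The genes whose CPM ranked most like each of these over the 38 EC cells of EQ, among 8892 genes, were taken as the 3 with the highest rho. For THBD they were NOTCH4, an endothelial Notch receptor (rho 0.657 in EQ and 0.559 in EQ-75%), SLC9A3R2 (0.655 and 0.474) and IL32 (0.648 and 0.476). For VWF they were MAGED4B, MAGED4 and UBP1, of which the first pair are near-identical copies that share reads and UBP1 had 0.552 in EQ and 0.610 in EQ-75%. SLC25A45, LIN28B and TRIM27 were nearest to PROCR, with rho between 0.594 and 0.617 in EQ, and ECHDC1, PPP1CB and MAP3K1 to TFPI, between 0.555 and 0.615. FBXL22, GOPC and ICT1 were nearest to F2R, VPS51, WBP1 and RPL39L to NOS3, and BCAR1, ANP32A and CHDH to KLF2, with values between 0.517 and 0.596 in EQ. KLF2 had at least 5 counts in 12 of these 38 cells, so most of its ranks lie near the limit of detection. EDN1 was examined over the 48 TB cells and 9478 genes, where NPY (0.596, and 0.477 in EQ-75%), SLFN13 (0.588 and 0.354) and CWC25 (0.544 and 0.662) were nearest. The nearest of so many genes are high by selection in EQ, and of these genes only UBP1 and CWC25 had a higher value in EQ-75% than in EQ. The lowest values in EQ-75% were 0.159 (FBXL22 with F2R), 0.268 (PPP1CB with TFPI) and 0.285 (ICT1 with F2R).

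Other genes of the same processes were divided between the cell types. Of 63 genes listed for hemostasis, vascular tone and the flow response, 58 were in the tables and 50 had at least 1 CPM in a cell type in all 3 experiments. In all 3 experiments 22 of them were at least 2-fold higher in EC and 15 at least 2-fold lower, against 17.4% and 24.9% of all genes. In hemostasis and fibrinolysis 10 of 22 genes were higher in EC and 6 lower, in vascular tone 11 of 22 higher and 7 lower, and in the flow response 1 of 6 higher and 2 lower.

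In hemostasis, F2RL2, the thrombin receptor PAR3, was at 850 ± 596 CPM in EC and 11.8 ± 19.4 CPM in TB in EQ, a ratio of 71.9. NT5E, the ectoenzyme that makes adenosine, was 16.3-fold higher in EC, PLAU, the urokinase plasminogen activator, 3.04-fold, and GGCX, the enzyme of vitamin K-dependent carboxylation, 2.63-fold. The subunits of the annexin A2 complex, a surface receptor for PLAT and plasminogen, were higher in TB, ANXA2 by 2.31-fold (3615 against 1566 CPM) and S100A10 by 4.03-fold (902 against 224 CPM). F3, the tissue factor inhibited by TFPI, was not past 2-fold, at 38.9 ± 84.3 CPM in EC and 54.5 ± 72.4 CPM in TB. F3 and PROS1, the protein S cofactor of the protein C pathway, at 75.6 CPM in EC and 6.44 CPM in TB, were picked for mention after their values were seen.

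In vascular tone, a receptor for endothelin and a subunit of the nitric oxide receptor were found mainly in TB. EDNRB, the endothelin B receptor, was at 0.796 ± 1.17 CPM in EC and 247 ± 246 CPM in TB, 310.5-fold higher in TB, and was detected in all 48 TB cells. GUCY1A3, a subunit of the guanylate cyclase that nitric oxide activates, was at 0.576 ± 0.642 CPM in EC and 185 ± 140 CPM in TB, 320-fold higher in TB. PTGIS, prostacyclin synthase, was 5.55-fold higher in TB. DDAH1 and DDAH2, which break down an inhibitor of nitric oxide synthases, were 2.12-fold and 2.11-fold higher in EC. MEF2C, a transcription factor upstream of KLF2 in the flow response, was at 288 ± 323 CPM in EC and 1.07 ± 3.41 CPM in TB, a ratio of 270, while KLF2 itself had a median under 1 CPM in EC. NPR1, a natriuretic peptide receptor, was at 60.9 CPM in EC and 0.0996 CPM in TB, and was picked for mention after its values were seen.

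**Figure D5:**
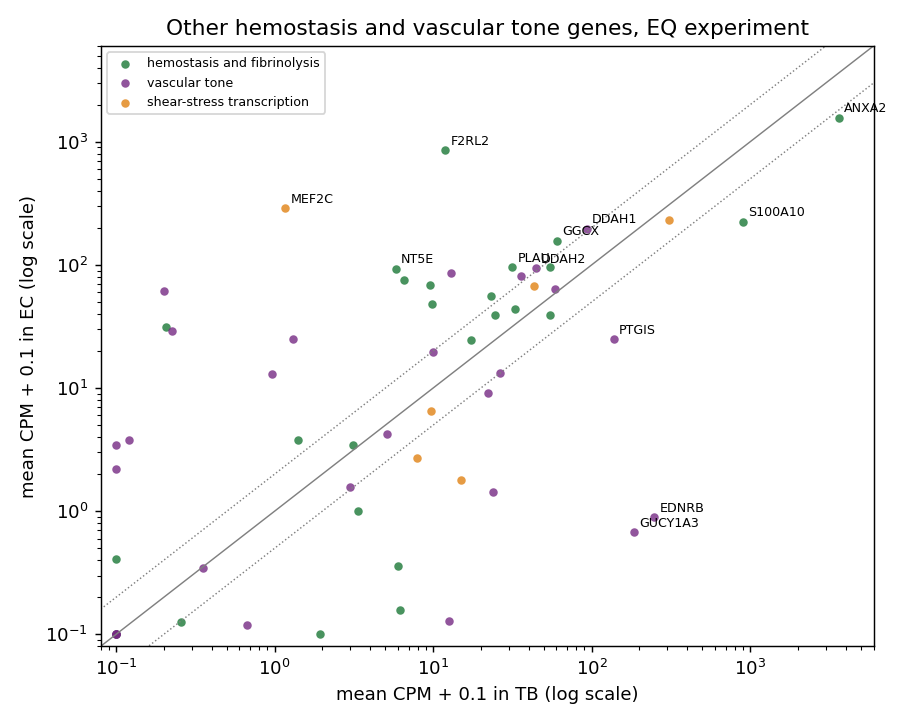
Mean CPM + 0.1 in EC against TB in EQ, on log scales, for the 58 other genes of hemostasis, vascular tone and the flow response, with equal levels (solid line) and 2-fold (dotted lines) marked and the 12 most abundant genes past 2-fold in all 3 experiments named. F2RL2 and MEF2C lie high in EC, and EDNRB, GUCY1A3, PTGIS and S100A10 lie on the TB side.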

How the data were processed

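The authors trimmed the reads to a common length, aligned them with Bowtie 1.2.3 to protein-coding transcripts of Ensembl (GRCh38) and estimated counts with RSEM 1.2.31; CASAVA 1.8.2 is also named in the submitters' processing notes. The deposited values are these expected counts, not normalized, of 17492 genes in 288 libraries; 0 sample columns were left unused. Doublets and dead cells had been removed from images in the earlier study, and no doublet caller was run here.

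Counts were rounded and scaled to CPM. A gene was detected at a rounded count of at least 1. Ratios of mean CPM used a floor of 3 counts over the group, and calls needed 2-fold and a mean of at least 1 CPM in a cell type. The trend of the variance of log2(CPM + 1) was a lowess with a span of 0.3 over genes with a mean of at least 0.1. Binomial, Poisson and ratio intervals (95%, exact) cover counting error only. Same-numbered cells share cDNA per the labels, and the deviations of every such pair from the means of their type correlated at 0.845 or more. Experiments were therefore compared cell by cell. Gene positions and canonical transcripts were from GENCODE v44. Named genes were the 10 members, the 12 most abundant genes of the wider list past 2-fold in all 3 experiments with at least 5 CPM, and the 3 genes with the highest rho to each member detected in at least 50% of EC cells, or of TB cells for EDN1.

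Alternatives covered scaling (scran 1.30.0), cell and gene filters, pseudocounts, thinning and leaving cells out. The ratio, variance, within-cell share and thinning steps were tested on simulated data. The members, lists and rules were chosen with earlier results of these data known, and leaving out EC 15 and using the cells kept in all 3 experiments were added after seeing the data. Python 3.11.15 (numpy 2.4.6, pandas 2.3.3, scipy 1.17.1, statsmodels 0.14.6, matplotlib 3.10.9) and R 4.3.3 were used.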

Additional observations from a re-analysis of the deposited data

How the results depend on the processing

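Each log2 ratio of EC over TB was recomputed under 9 alternatives in each experiment. Of 270 values, 266 kept their direction and 260 their call, while 107 moved by more than the limit set for a change. Dropping the filter on low values could not move a ratio, since it only decides which genes can be called. All 10 genes already passed it, so their calls stayed too. Using the deposited counts without rounding left VWF in EQ at a log2 ratio of 6.51. These alternatives add to the values that kept direction and call. Over the alternatives in EQ the log2 ratio of PROCR ran from 5.08 to 8.29, that of VWF from 3.79 to 8.59 and that of THBD from 2.05 to 4.32. On the mean of log2(CPM + 1) the ratio of TFPI2 turned to 0.025 in EQ and 0.074 in EQ-Vary, the number of the 10 genes lower in EC was 1 in EQ and in EQ-Vary, and the number of wider-list genes lower in EC was 8 for EQ, 9 for EQ-Vary and 10 for EQ-75%, against 15, 16 and 16. In EQ-75% the number of the 10 genes lower in EC was 2, rather than 1, with summed counts and with the highest cell of each gene left out. With all 45 EC and 51 TB cells, TFPI2 was 0.80 higher in EC on the log2 scale in EQ-75%. PLAT lost its call on the mean of log2(CPM + 1) and with its highest cell left out, which made 7 genes higher in EC. The causes were not tested.

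All 21 alternative counts of genes above the variance trend stayed within the limits set for a change. So did all 4 alternative differences in how many of the 10 genes a cell had. These limits were wide. Without EC 15 the count in EC fell from 5 to 4 in EQ and still passed. The lower difference between EQ and EQ-75% after thinning passed too. The main differences of EQ from EQ-75% and EQ-Vary, 0.459 and 0.132, were smaller than their SDs over cells, 0.803 and 0.935. No conclusion on their stability is drawn from these limits. Without the pairing of the cells (no replicate block), EQ had 0.412 more genes per EC cell than EQ-75% and 0.132 more than EQ-Vary. A count of at least 5 lowered most detection shares of the low genes, and 40 of 210 alternative shares lay outside the interval of the main value. With a pseudocount of 5 CPM, 9 of 19 shares of variance between the libraries of a cell moved, that of THBD in EC from 1.97% to 0.569%. At these depths a gene at 1 count is near the limit of detection, so that VWF, PROCR and THBD in most TB cells and KLF2 and EDN1 in most EC cells cannot be ranked between cells.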
